A study of Mus musculus with 4 samples.

Results

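The genes described here are linked to the granules of cytotoxic cells and of mast cells. They include the granzymes Gzma, Gzmb, Gzmc, Gzmk and Gzmm and the pore-forming protein perforin (Prf1). The others are the mast-cell carboxypeptidase Cpa3, the granule proteoglycan serglycin (Srgn), the granule membrane protein Nkg7 and cathepsin W (Ctsw). All were taken by gene symbol, 10 genes of 18193 named on the array, with 11 probe sets naming 1 of them and no other gene. Expression had been measured on 4 Affymetrix arrays of T29, a mouse thymic lymphoma line described in the design text as lacking Ikaros. Every sample, controls included, carried MigR1-MLER, a retroviral construct for an inducible dominant-negative form of Mastermind, and was cultured for 24 h either in ethanol (2 samples) or in 100 nM 4OHT (2 samples), a tamoxifen metabolite that binds oestrogen receptor fusions. Notch turns on its target genes together with Mastermind as co-activator. Samples without the construct are not among these arrays, so an effect of 4OHT itself and an effect of the blocked Mastermind cannot be told apart. Whether the replicates were separate cultures is not stated in the labels, and the p-values rest on a spread between samples that may be technical.

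Cytotoxic T cells and NK cells store granzymes with perforin on serglycin in lysosome-like granules. On contact with a target cell the granule is released, perforin opens the membrane and the granzymes enter and cleave their substrates. Thymocytes and their lymphomas are not usually killer cells, but some precursors, innate-like T cells and gamma-delta T cells hold RNA for single granzymes. In mature CD8 T cells, Notch has been reported to act on the Gzmb and Prf1 genes.

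Of the 10 genes, 3 were higher with 4OHT, none was lower, 3 were tested and not called, and 4 lay below the level needed for testing. The genes that rose were Cpa3 (4.43-fold), Gzma (2.13-fold) and Ctsw (1.76-fold). Gzmb, Gzmc, Gzmk and Nkg7 stayed below the floor on the mean of the 4 arrays, and Prf1 lay close to it. Values are RMA log2 expression levels, 1 per probe set and array, and each gene is read through its probe set with the highest mean. The floor was a log2 value of 4.81, the 40th percentile of the probe sets naming 1 gene. All 6 tested genes had both group means above the floor. A call needed an adjusted p under 0.05 in limma, fitted over all 11581 genes above the floor with Benjamini-Hochberg adjustment. In that fit 7.47% of genes were called, 3.9% as higher and 3.57% as lower, and the groups did not overlap for 56.9% of genes (4OHT above for 26.7%, below for 30.2%). With the 4OHT arrays above, 5 of the 6 tested granule genes did not overlap. The arrays cannot tell more RNA per cell from more cells that hold it.

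**Figure D1:**
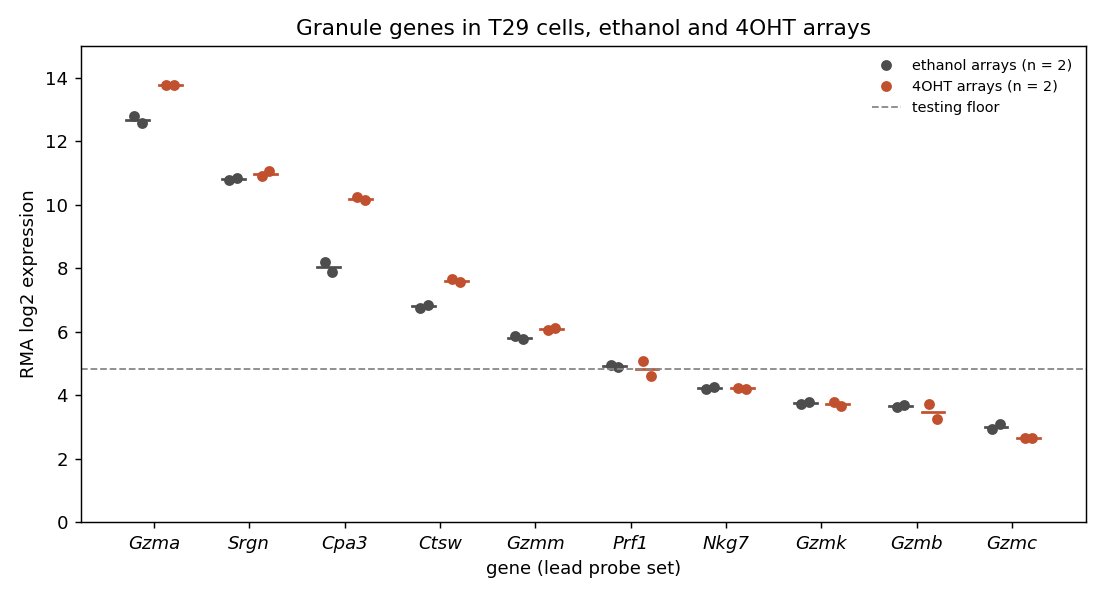
RMA log2 expression (vertical axis) of the 10 genes (horizontal axis) on the 2 ethanol and 2 4OHT arrays. Points are arrays, short lines are group means and the dashed line is the testing floor at 4.81. Probe sets differ in brightness, so levels can be compared between the groups of a gene and not between genes. The Cpa3, Gzma and Ctsw points of the groups lie clearly apart, and Nkg7, Gzmk, Gzmb and Gzmc lie under the floor.

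The bases before the start of 4 genes are shown because 2 of them rose together (Gzma, Cpa3), 1 is the neighbour of Gzma and stayed below the floor (Gzmk), and 1 holds the only match to the RBPJ core among these genes (Prf1). RBPJ is the DNA-binding partner of Notch. Each run gives the 250 bases before the RefSeq start on assembly GRCm38.p6, 5′ to 3′ on the strand of the gene. Capitals mark TGGGAA, the core read by RBPJ, or TGTGGT, the core read by RUNX factors, with ACCACA the same core on the other strand.
Gzma (chr13:113100982-113101231, minus strand): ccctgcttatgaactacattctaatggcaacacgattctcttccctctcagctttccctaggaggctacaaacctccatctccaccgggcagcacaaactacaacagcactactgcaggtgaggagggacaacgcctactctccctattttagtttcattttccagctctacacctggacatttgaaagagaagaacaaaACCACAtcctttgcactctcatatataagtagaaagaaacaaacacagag
Cpa3 (chr3:20242182-20242431, minus strand): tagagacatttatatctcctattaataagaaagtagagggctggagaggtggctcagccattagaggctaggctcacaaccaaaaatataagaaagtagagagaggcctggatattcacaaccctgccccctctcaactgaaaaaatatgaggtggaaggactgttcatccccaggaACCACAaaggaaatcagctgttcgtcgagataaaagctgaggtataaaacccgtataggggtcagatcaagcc
Gzmk (chr13:113180966-113181215, minus strand): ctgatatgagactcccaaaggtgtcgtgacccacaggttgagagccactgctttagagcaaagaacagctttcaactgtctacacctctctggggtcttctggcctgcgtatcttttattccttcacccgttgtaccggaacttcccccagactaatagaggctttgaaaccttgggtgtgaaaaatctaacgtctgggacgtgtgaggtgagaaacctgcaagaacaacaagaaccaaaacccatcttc
Prf1 (chr10:61297586-61297835, plus strand): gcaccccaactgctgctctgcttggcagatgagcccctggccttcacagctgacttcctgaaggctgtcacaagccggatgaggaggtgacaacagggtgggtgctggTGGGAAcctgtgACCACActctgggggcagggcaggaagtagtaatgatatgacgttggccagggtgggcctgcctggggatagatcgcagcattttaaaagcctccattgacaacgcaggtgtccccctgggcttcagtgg

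RefSeq windows were found for 9 of the 10 genes, 11 windows in all, and Ctsw had no entry. The RBPJ core TGGGAA, searched on both strands, was in 1 of these windows, that of Prf1, starting 142 bases before the start. It was in 21.6% of all 32851 windows of the same length. The RUNX core TGTGGT was in 8 of the 11 windows and in 14.0% of all windows. Those 8 windows belonged to Gzma, Gzmb, Gzmc, Gzmm, Prf1, Cpa3, Srgn and Nkg7, so it was found before genes that rose, genes that were not called and genes below the floor. In the window of Gzma the core began 50 bases before the start, and in that of Cpa3 73 bases before. The T-box motif GGTGTGA was in 3 windows, those of Gzmk, Gzmm and Nkg7, against 3.33% of all windows. A STAT site, TTC and GAA with 3 bases between them, was in the windows of Gzmm and Nkg7, against 7.02% of all windows. None of the 16 matches overlapped another. These are letter matches in short windows, and no binding was measured.

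Cpa3 had the largest change of these genes. It encodes carboxypeptidase A3, a zinc exopeptidase that mast cells store in their granules and that is also transcribed in early blood progenitors. Its log2 level was 8.20 and 7.89 in the ethanol samples against 10.23 and 10.16 in the 4OHT samples. Both 4OHT arrays therefore stood well above both ethanol arrays. The log2 change was 2.15 ± 0.13 (SE, n = 2 each; limma adjusted p = 0.00428), at rank 5 from the top of all 11581 tested genes. Without 4OHT replicate 1 the change was 2.11 and the adjusted p 0.0520, just over the threshold, and without any other single array the call held.

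Gzma encodes granzyme A, a tryptase of cytotoxic granules. Its log2 level was 12.80 and 12.56 in ethanol and 13.77 and 13.77 in 4OHT. The gene was thus bright in both groups and its 4OHT arrays were nearly equal. The log2 change was 1.09 ± 0.11 (SE, n = 2 each; limma adjusted p = 0.0121), at rank 66 from the top of all tested genes. Leaving out either 4OHT array ended the call, at an adjusted p of 0.0879 (replicate 1) and 0.0670 (replicate 2), with the change at 1.09 in both fits.

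Ctsw encodes cathepsin W, a papain-like cysteine protease found in NK cells and cytotoxic T cells. Its log2 level was 6.74 and 6.84 in ethanol and 7.65 and 7.56 in 4OHT, so the groups did not overlap. The log2 change was 0.81 ± 0.09 (SE, n = 2 each; limma adjusted p = 0.0154), at rank 190 from the top. The call held without ethanol replicate 2 (adjusted p = 0.0487). It was lost without ethanol replicate 1 or either 4OHT array (replicate 1, then 2), at adjusted p-values of 0.0699, 0.101 and 0.0677, while the change stayed between 0.76 and 0.86. Over all 3 genes, the number called was 2 or 3 when an ethanol array was left out (replicate 1 or replicate 2), and 0 or 1 when a 4OHT array was (replicate 1 or replicate 2). A fit on 3 arrays has fewer degrees of freedom, and the count over all genes fell as well, to between 9 and 125 higher genes from 452.

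**Figure D2:**
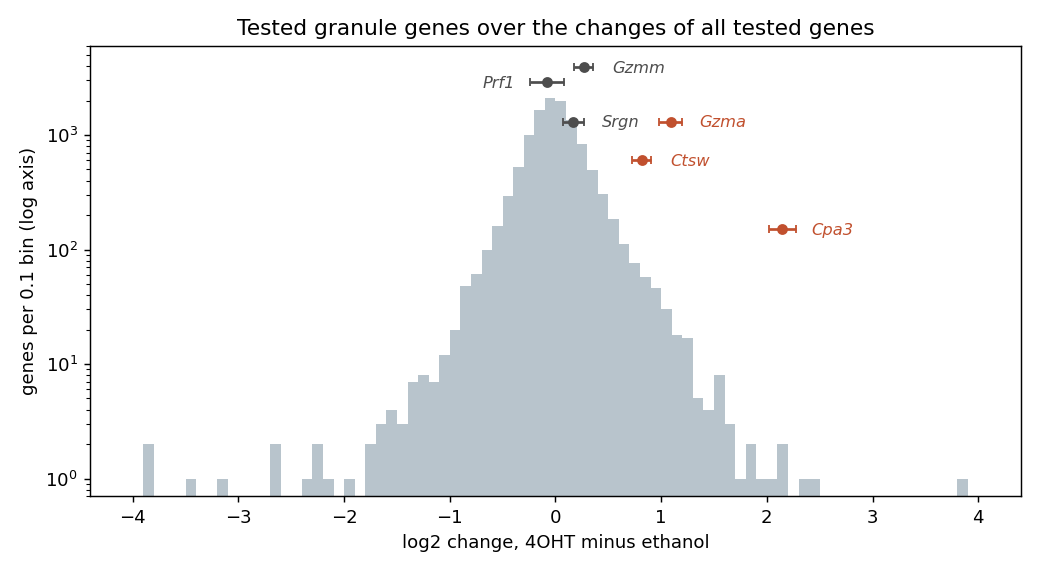
Histogram of the log2 change, 4OHT minus ethanol, over the 11581 tested genes (grey; the vertical axis counts genes per bin on a log axis), with the 6 tested granule genes as points with their SE; the height of a point has no meaning. Cpa3 (2.15), Gzma (1.09) and Ctsw (0.81), in red, lie in the upper tail. Gzmm (0.27), Srgn (0.17) and Prf1 (-0.08) lie closer to the centre.

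Of the remaining tested genes, Gzmm, Srgn and Prf1 were not called. Gzmm encodes granzyme M, which cleaves after methionine and is best known from NK cells. Its log2 level was 5.86 and 5.76 in ethanol and 6.05 and 6.10 in 4OHT, so that the 4OHT arrays were the higher ones by a small margin. The log2 change was 0.27 (95% interval 0.05 to 0.49, limma adjusted p = 0.135), at rank 1588 from the top. Before adjustment the limma p was 0.0261. A p under 0.05 on the higher side was found for 12.3% of all tested genes.

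Srgn encodes the core protein of serglycin, the proteoglycan that packs granzymes and perforin in the granule. Its log2 level was 10.77 and 10.84 in ethanol and 10.89 and 11.06 in 4OHT, again with no overlap, at a log2 change of 0.17 (95% interval -0.08 to 0.42, adjusted p = 0.342). An interval that wide does not show that Srgn was unaffected.

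Prf1 was read by a pair of probe sets. The brighter one was at 4.94 and 4.90 in ethanol and 5.06 and 4.62 in 4OHT, with the 4OHT arrays on both sides of the ethanol arrays (log2 change -0.08, 95% interval -0.47 to 0.32, limma adjusted p = 0.794). The sign depended on 1 array, and without 4OHT replicate 2 the change was 0.14. The dimmer probe set was at 4.51 and 4.24 in ethanol and 3.95 and 4.25 in 4OHT, below the floor. Prf1 was the tested gene nearest to the floor, with a mean of 4.88 over the arrays, and Nkg7 the nearest below it, at 4.22.

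**Figure D3:**
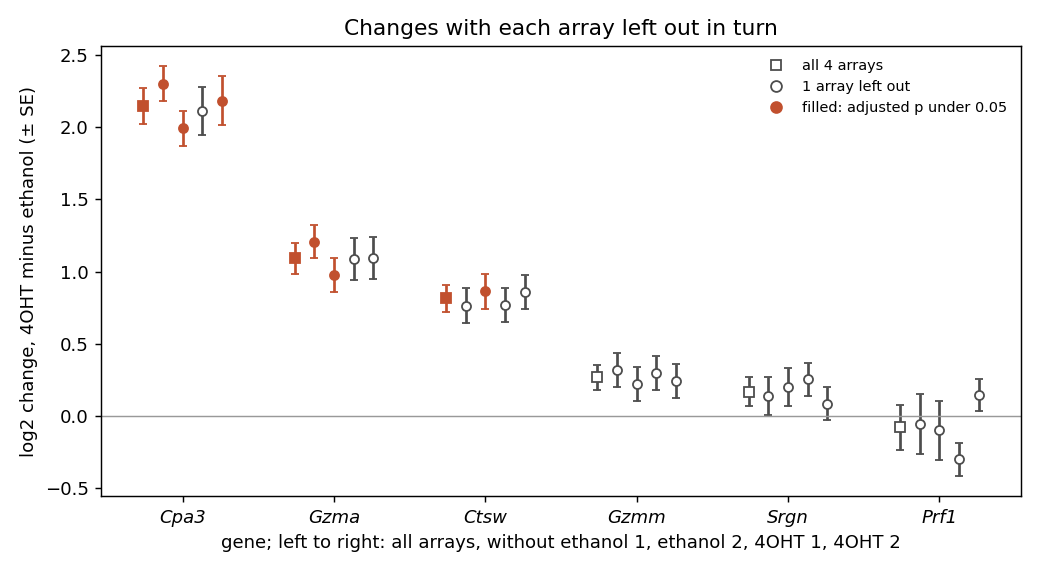
Log2 change, 4OHT minus ethanol, of the 6 tested genes (vertical axis, with SE) from all 4 arrays (squares) and with each array left out in turn (circles); filled red symbols had an adjusted p under 0.05. The changes of Cpa3 stay between 1.99 and 2.30, those of Gzma between 0.97 and 1.21, and that of Prf1 crosses 0.

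The genes below the floor were given no test. Gzmb encodes granzyme B, which cleaves after aspartate and activates caspases in the target cell. It was at 3.64 and 3.70 in ethanol and 3.72 and 3.25 in 4OHT, an overlap of the groups. Gzmk, a tryptase related to granzyme A, was at 3.71 and 3.78 in ethanol and 3.77 and 3.66 in 4OHT. Nkg7, a membrane protein needed for granule release, was at 4.19 and 4.26 in ethanol and 4.23 and 4.20 in 4OHT. Both also overlapped. Gzmc, a granzyme of the gene cluster of Gzmb, was at 2.93 and 3.09 in ethanol and 2.64 and 2.67 in 4OHT. Its groups did not overlap, as was the case for 38.1% of all genes below the floor. With no filter, the adjusted p of these genes lay between 0.123 for Gzmc and 0.984 for Nkg7. RMA gives no detection call, so these levels do not show that the RNA is absent.

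The other granzyme genes were also below the floor. Gzmd, Gzme, Gzmf, Gzmg and Gzmn lay between 2.47 and 3.13 on every array. Of 8 mast-cell and neutrophil proteases of the same gene cluster, 6 had a probe set and none was tested. Among them Cma1, the mast-cell chymase, was at 4.07 and 4.21 in ethanol and 4.00 and 4.02 in 4OHT.

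The nearest genes on the chromosome were read in RefSeq order, counting protein-coding genes with a probe set and going a pair of genes out on each side. Around Gzma on chromosome 13, Gpx8, a glutathione peroxidase family gene of the endoplasmic reticulum, rose from a mean log2 level of 5.39 to 6.41 (log2 change 1.01 ± 0.12 SE, limma adjusted p = 0.0173). On the other side Gzmk lay below the floor, and beyond it Esm1, which encodes endocan, rose from 8.22 to 9.03 (0.80 ± 0.13, adjusted p = 0.0305). Both tested neighbours of Gzma were called higher, while Gzmk stayed dim. Over all tested genes 3.9% were called higher and 3.57% lower. Whether genes of a stretch changed together was not tested. Around Cpa3 on chromosome 3, 1 of 2 tested neighbours passed, Gyg, which encodes glycogenin (0.54 ± 0.10, adjusted p = 0.0383). Gpx8 passed without ethanol replicate 2 (adjusted p = 0.0447) and in no other fit on 3 arrays (0.0604 to 0.108), and Esm1 and Gyg passed in none of them (0.0582 to 0.149). When all probe sets were tested together Gyg did not pass (0.0593). None of 4 tested neighbours of Ctsw passed, with changes of 0.18 for Fibp, 0.22 for Mus81, -0.16 for Ccdc85b and 0.01 for Cfl1 (adjusted p from 0.252 to 0.954). Around Gzmm, Prf1, Srgn and Nkg7, which were not called or not tested, 0 of 3, 0 of 3, 0 of 4 and 0 of 2 tested neighbours passed in limma at an adjusted p under 0.05. Around Gzmk, which was not tested either, 3 of 4 tested neighbours were called higher, namely Gzma, Gpx8 and Esm1. Gzmb and Gzmc had no tested neighbour.

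Of 10 tested genes that mature, sort or inhibit granule proteases, 1 was higher and none was lower, against 3.9% and 3.57% of all tested genes. Before adjustment, p was under 0.05 for 3 higher genes and 1 lower gene, against 12.3% and 13.2% of all tested genes. The median log2 change was 0.11 against -0.01 over all tested genes. Ctsl, the lysosomal protease cathepsin L, was at 10.84 and 10.86 in ethanol and 11.74 and 11.84 in 4OHT (log2 change 0.94 ± 0.09 SE, limma adjusted p = 0.0109). Its dimmer probe set overlapped between the groups, and with the mean of both probe sets Ctsl was not called (0.78, adjusted p = 0.0698). Ctsc, the dipeptidyl peptidase that trims progranzymes into active enzymes, was at 9.09 and 8.96 in ethanol and 8.51 and 8.87 in 4OHT (adjusted p = 0.211). The chaperone gene Calr had a change of 0.05 (adjusted p = 0.781), and M6pr, a mannose-6-phosphate receptor that sorts granzymes, one of 0.07 (adjusted p = 0.642).

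Of 14 tested genes for the transport and release of lytic granules, 2 were higher and none was lower, against the same 3.9% and 3.57% of all genes. Before adjustment, p was under 0.05 for 5 higher genes and no lower gene, against 12.3% and 13.2%. Their median change was 0.18. Lyst, a regulator of lysosome and granule size, rose from 9.04 and 9.29 to 10.27 and 10.31 (1.12 ± 0.11 SE, limma adjusted p = 0.0121), and with the mean of its probe sets the change was 0.70 (adjusted p = 0.0158). Sytl1, a synaptotagmin-like protein that binds Rab27, rose from 8.44 and 8.49 to 9.54 and 9.29 (0.95 ± 0.11, adjusted p = 0.0165). Rab7, a late endosome GTPase gene, was at a change of 0.03 (adjusted p = 0.868), and the granule membrane gene Lamp1 at 0.21 (adjusted p = 0.195). With either 4OHT array left out none of Ctsl, Lyst and Sytl1 was called (adjusted p from 0.0535 to 0.0879). With either ethanol array left out Ctsl and Lyst were called and Sytl1 was not (adjusted p = 0.0729 without replicate 1 and 0.0550 without replicate 2).

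No tested death ligand, death receptor, effector cytokine or factor of the cytotoxic programme passed in limma. The 5 tested genes of the first list were the ligand and cytokine genes Tnfsf10, Tnf, Ltb and Ccl4 and the receptor gene Fas. An unadjusted p under 0.05 was found for Fas, Tnfsf10 and Ltb, all higher, and for Ccl4, lower, against 12.3% of all tested genes on the higher side and 13.2% on the lower side. Their median change was 0.37. Fas had an ethanol mean of 4.63, below the floor, and passed the filter only through its 4OHT arrays. Ltb, lymphotoxin beta, was at 0.54 (adjusted p = 0.138), Tnfsf10, which encodes the death ligand TRAIL, at 0.37 (adjusted p = 0.0613), Tnf at -0.03 (adjusted p = 0.914) and the chemokine gene Ccl4 at -0.32 (adjusted p = 0.136). Fasl and Ifng were below the floor. For the 10 tested factors, an unadjusted p under 0.05 was found for no higher gene and 1 lower gene, against the same shares of all genes. Their median change was 0.02. The lower gene was Nfil3, which had a 4OHT mean of 4.68, below the floor, and passed the filter only through its ethanol arrays. Runx1 was at 10.01 and 10.17 in ethanol and 10.18 and 10.48 in 4OHT (adjusted p = 0.316). Id2 had a change of 0.45 (adjusted p = 0.342), Ets1 0.24 (adjusted p = 0.222) and Stat5b 0.18 (adjusted p = 0.321). Eomes was below the floor, and Tbx21, which encodes T-bet and was added after seeing its value, had a change of 0.10 (adjusted p = 0.513).

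**Figure D4:**
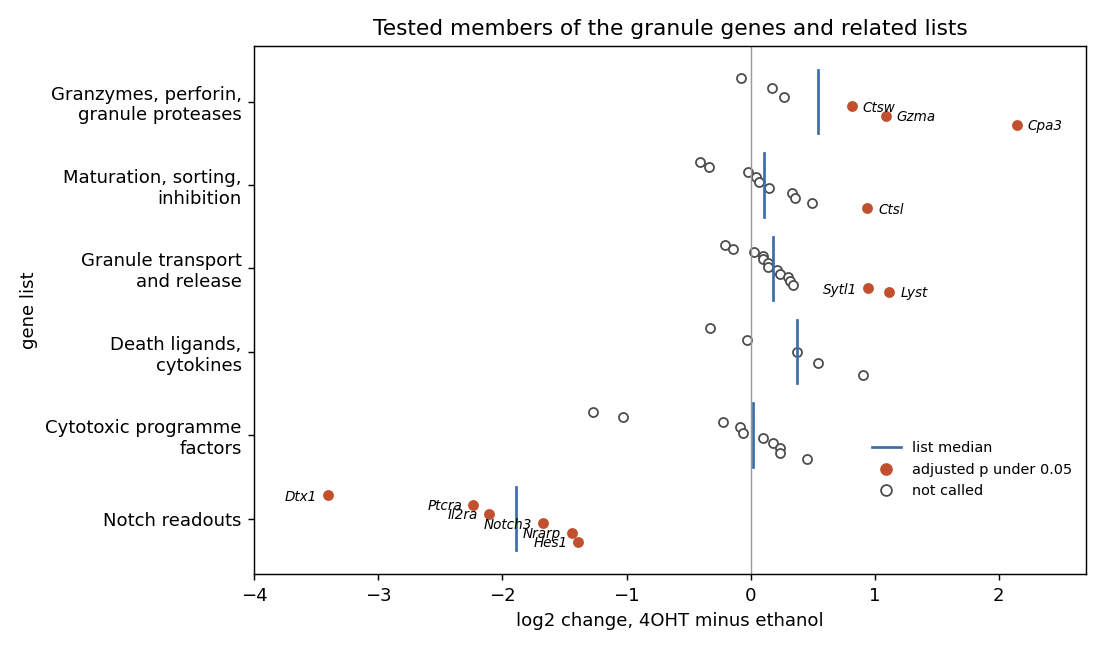
Log2 change, 4OHT minus ethanol (horizontal axis), of the tested genes of the granule group and of 5 related lists (vertical axis, spread within a list only for sight); filled red points had an adjusted p under 0.05 and blue lines are list medians. The called granule genes and Ctsl, Lyst and Sytl1 lie above 0.8, and all 6 Notch readout genes lie below -1.3.

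The 6 Notch readout genes all fell, by changes from -1.39 for Hes1 to -3.41 for Dtx1. All 6 were called lower, against 3.57% of all tested genes. Of the 6 tested granule genes, 5 had a change above 0, as did 47.7% of all tested genes. The cell type was checked through its markers. Of 11 T-cell markers with a probe set, 9 were above the floor, among them Cd3e, Cd3d and Thy1, and Cd2 and Cd5 were below it. The median log2 change of these 9 was 0.63. Before adjustment, the limma p was under 0.05 for 5 higher genes and 1 lower gene, against 12.3% and 13.2% of all tested genes. After adjustment 3 were higher (Cd8a, Cd247, Cd28) and 1 lower (Cd3g) with 4OHT, against 3.9% and 3.57% of all tested genes. None of these 4 calls held in any fit with 1 array left out (adjusted p from 0.0753 to 0.158) or when all probe sets were tested together (0.0507 to 0.0646). Most of the NK-cell, mast-cell and basophil, and neutrophil and macrophage markers were below the floor. Of 10 NK-cell markers, 3 were above the floor (Itga2, Fcer1g, Il2rb), at means of 4.81 to 4.97, and the sum of the 10 log2 levels was 39.2 and 40.3 with ethanol and 39.7 and 39.0 with 4OHT. Ncr1, Klrk1 and Klrd1 were below the floor. Of 10 mast-cell and basophil markers, Kit and Mitf were tested, and Kit, a receptor also found on early T-cell precursors, rose from 5.35 and 5.72 to 6.36 and 6.31 (0.80 ± 0.14 SE, limma adjusted p = 0.0339; with 1 array left out it passed only without ethanol replicate 2, at 0.0454, and with all probe sets tested together it was at 0.0503). The sum of the 10 log2 levels was 43.1 and 43.5 with ethanol and 43.7 and 43.7 with 4OHT. Without Kit, the only marker of this list that was called, the sum was 37.8 and 37.8 with ethanol and 37.3 and 37.4 with 4OHT. Taking out the gene that rose lowers the difference between the groups by construction. Of the 10 markers 8 were below the floor, among them Fcer1a, Ms4a2, Tpsb2, Tpsab1, Hdc and Gata2, so the sums are mostly of dim genes. Whether mast cells were a source of Cpa3 RNA was not tested. Of 10 neutrophil and macrophage markers, Cd14 and Csf1r were tested and not called. Itgam, an integrin gene of myeloid and NK cells, had a mean below the floor but moved with the groups, at 4.10 and 3.96 in ethanol and 4.83 and 4.79 in 4OHT (log2 change 0.77; with no filter it was called, limma adjusted p = 0.0165). The sum of these 10 log2 levels was 44.4 and 44.3 for the ethanol arrays and 44.5 and 43.9 for the 4OHT arrays, and Mpo, Elane, Prtn3 and Adgre1 were below the floor. Of 5 B-cell markers, Pax5 and Cd22 were tested and not called. The 18S ribosomal control moved with the groups: its 3′ minus 5′ log2 difference was 0.05 and 0.32 in ethanol and 0.90 and 0.82 in 4OHT, while that of Actb was 0.40 and 0.49 in ethanol and 0.43 and 0.45 in 4OHT. The part of the 18S shift, of Kit and of Itgam in the changes of the granule genes was not tested.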

How the data were processed

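The deposited values are log2 expression values that the authors computed with RMA (per the submitters' processing notes, which give no version). That they are on a log2 scale was read from their range, 2.25 to 14.6, with array medians of 5.12 to 5.14. RMA equalises the arrays and gives no read depth, so the number of arrays limits the precision, and folds near background can be understated. Probe sets were named from the platform annotation (34945 named 1 gene). Each gene was read through its probe set with the highest mean, and 6612 genes below the floor were not tested. The comparison used lmFit and eBayes of limma 3.58.1 (R 4.3.3) on 4 arrays with no block, tested on simulated data, with log2 changes as 4OHT minus ethanol. Intervals come from the same fit. Promoter windows are RefSeq's; no coordinates came with the arrays. Genes outside the granule group were named by rule: called genes of a list first, then the brightest, up to 4, with tested neighbours and Notch readouts; list members stated to be below the floor were added to describe the lists. The members and lists were chosen with earlier results of these data known. The alternatives were other filters, normalizations, probe set rules, a variance trend, a threshold of 0.10, the replicate number as a block, and each array left out.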

Additional observations from a re-analysis of the deposited data

How the results depend on the processing

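Cpa3, Gzma and Ctsw stayed called as higher under each of the 9 alternatives that kept all 4 arrays. Their log2 changes were 2.12 to 2.15, 1.07 to 1.10 and 0.78 to 0.81. The threshold of 0.10 could not lose a call made at 0.05. With 1 probe set for each of these genes, the mean of the probe sets left their values unchanged. No granule gene was called lower in any fit. With 1 array left out, 0 to 3 granule genes, 9 to 125 of all genes and 0 to 2 genes of the related lists were called higher, and 12 to 66 of all genes and 2 to 6 of the related lists lower. Prf1 changed sign without 4OHT replicate 2 (from -0.30 to 0.14 over the left-out arrays). With the replicate number as a block, 1104 genes were called higher and 1031 lower. Of the related lists, 9 genes were then higher in place of 3, and 9 lower in place of 6. The deviations of same-numbered arrays had a correlation of 0.34 over genes; with 1 such value and no word in the labels, the numbers were not taken as pairs. When all probe sets were tested together, 282 lead probe sets were higher and 221 lower. With an intensity trend 663 genes were higher and 636 lower. At an adjusted p under 0.10, 853 genes were higher and 824 lower, and of the related lists 6 genes were higher and 7 lower. The causes were not tested. Gzmm and Prf1 lay below a floor at the 60th percentile, and Prf1 also with the mean of its probe sets, so these gave no value. With 2 arrays a group and no detection call, small changes in the dim genes cannot be resolved.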

Other observations

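A few genes close to the granule system were looked at after their values were seen. Fas, the death receptor gene, was at 4.63 and 4.64 in ethanol and 5.86 and 5.21 in 4OHT, and did not pass in limma (adjusted p = 0.0664). Serpinb9, whose product inhibits granzyme B, was at 7.15 and 6.82 in ethanol and 7.49 and 7.47 in 4OHT (limma adjusted p = 0.0842). Gnptab, from the same list of maturation, sorting and inhibition genes, went the other way and was nearer to the threshold. Its log2 change was -0.41 (limma adjusted p = 0.0615). Nfil3, a bZIP factor gene of NK-cell development, was at 5.79 and 6.12 in ethanol and 4.10 and 5.26 in 4OHT. Its 4OHT arrays were more than 1 log2 unit apart (limma adjusted p = 0.106). Fas in ethanol and Nfil3 in 4OHT had a group mean below the floor, so each was tested only through its brighter group. Without 4OHT replicate 2, the only 4OHT array left was the one farther from ethanol, at 5.86 for Fas and 4.10 for Nfil3. A call of either gene in that fit rests on this 1 array.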
